A study of Mus musculus with 6 samples.

Results

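CXC chemokine ligands are small secreted proteins that steer leukocytes, and the 6 genes described here are Cxcl1, Cxcl3, Cxcl9, Cxcl10, Cxcl14 and Cxcl16. They were taken by gene symbol, and all 6 were found among the 9295 genes of the deposited count table. The study sequenced RNA from the bone marrow of mice that carry acute myeloid leukemia, in 6 samples. Of these, 3, called Con, have the genotype PAPOLA flox/flox, in which the gene carries recombination sites but is intact, and 3, called KO, have the genotype PAPOLA KO. Papola encodes the canonical nuclear poly(A) polymerase, and the comparison addresses what its loss does in the leukemia. All samples share the tissue bone marrow and the cell type label leukemia. The Cre driver, the leukemia-initiating lesion, the age and sex of the mice, and any sort of cells are not stated in the labels used here. Nor do the labels say that the samples of a group are separate animals, so p-values here reflect the spread among these samples alone, and that spread may be technical.

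Chemokines bind G protein-coupled receptors on leukocytes and direct their migration along gradients. Cxcl1 and Cxcl3 belong to the group that acts on Cxcr2 and draws neutrophils out of the marrow and into inflamed tissue. Their genes are classical targets of NF-kB, and their messenger RNAs are short-lived. Cxcl9 and Cxcl10 are interferon-induced ligands of Cxcr3, a receptor of activated T cells and NK cells. Cxcl16 is made as a transmembrane protein that binds Cxcr6 and is shed from the surface by the protease Adam10. Cxcl14 is a constitutively expressed chemokine of epithelia and other tissues that acts on monocytes and dendritic cells.

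In the mouse reference order of protein-coding genes, Cxcl3, Cxcl1 and Cxcl2 lie in 1 cluster with Cxcl5, Ppbp, Pf4 and Cxcl15, and Cxcl9 and Cxcl10 lie in another with only Art3 between them. Both clusters are on chromosome 5. Promoter stretches are shown because Cxcl1 and Cxcl3 had closely similar fold changes, Cxcl2 lies beside them and changed far less, and Cxcl9 and Cxcl10 moved in opposite directions. The 120 bases before each transcription start, 5' to 3' on the strand of the gene, are from RefSeq with the build GRCm38.p6, and 5 of the 6 genes had an entry there. Capitals mark matches to the kappaB consensus (searched on both strands) and to the TATA box TATAAA (searched on the strand of the gene).
Cxcl1, chr5:90891125-90891244, plus strand: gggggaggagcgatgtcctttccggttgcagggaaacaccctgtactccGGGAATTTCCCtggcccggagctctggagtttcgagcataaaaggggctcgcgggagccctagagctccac
Cxcl3, chr5:90785981-90786100, plus strand: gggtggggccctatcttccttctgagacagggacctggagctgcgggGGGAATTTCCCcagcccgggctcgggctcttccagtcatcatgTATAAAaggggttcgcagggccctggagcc
Cxcl2, chr5:90903779-90903898, plus strand: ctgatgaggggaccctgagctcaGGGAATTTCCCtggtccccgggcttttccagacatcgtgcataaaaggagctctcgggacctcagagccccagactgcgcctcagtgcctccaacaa
Cxcl10, chr5:92348890-92349009, minus strand: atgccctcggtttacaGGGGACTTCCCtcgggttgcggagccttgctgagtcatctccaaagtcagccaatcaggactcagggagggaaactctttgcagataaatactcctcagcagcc
Cxcl9, chr5:92328080-92328199, minus strand: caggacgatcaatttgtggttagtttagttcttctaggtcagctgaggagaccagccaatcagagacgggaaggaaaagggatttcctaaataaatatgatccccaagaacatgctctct

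Cxcl1, Cxcl3 and Cxcl2 carried the same 10 letters, GGGAATTTCC, starting 71, 73 and 97 bases before the start. In each of the 3 the match was followed by 1 more on the other strand that overlapped it. Cxcl10 had a further kappaB match, GGGAAATTCC, starting 159 bases before the start. The kappaB consensus was found in 7.25% of 32851 mouse promoter windows of 250 bases upstream, and the TATA box in 7.59%. Among the 9279 windows of genes in the deposited table, the shares were 8.94% for kappaB and 4.46% for the TATA box. The interferon-stimulated response element, searched on both strands as GAAA, any 2 bases and GAAA again, was found upstream of Cxcl10 and Cxcl14 and in 2.98% of all windows. A gamma-activated site, searched as TTCNNNGAA on both strands, was found upstream of Cxcl14 and in 7.02% of windows. In windows of genes in the deposited table, the response element was found in 2.71% and the gamma-activated site in 6.13%. All motifs here are letter matches, not measured binding.

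**Figure D1:**
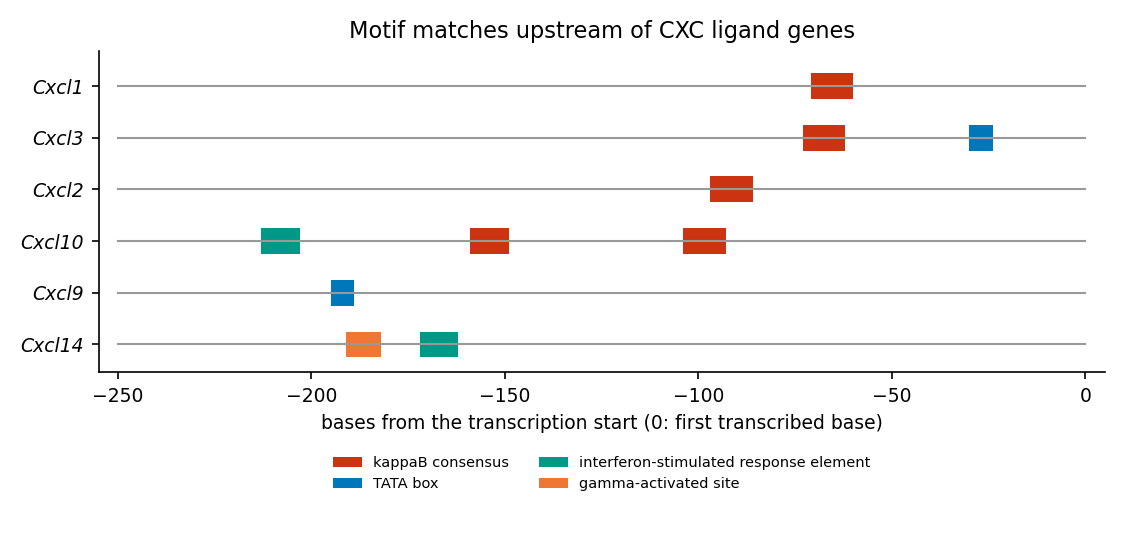
Positions of motif matches in the 250 bases upstream of 6 CXC ligand genes. The horizontal axis is the distance in bases from the transcription start and each bar is 1 match or overlapping matches of the motif named by its colour. Cxcl1, Cxcl3 and Cxcl2 each show 1 kappaB stretch within 97 bases of the start, Cxcl10 shows 2, and Cxcl9 and Cxcl14 show none.

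The libraries held 8875021 to 11436212 rounded counts, and levels are counts-per-million (CPM) after TMM scaling between libraries. Papola itself was not reduced in KO libraries after this scaling (2440 to 2929 counts, against 3642 to 3779 in Con). Its log2 fold change, KO less Con, was 0.22 (SE 0.08, edgeR adjusted p = 0.0291). Scaled by library size alone, it was -0.13 (edgeR adjusted p = 0.186). Without any single one of the libraries Con 1, 2 and 3 and KO 1 and 2 the adjusted p was 0.0614 to 0.0814. The edgeR adjusted p was 0.167 with upper-quartile scaling and 0.0868 with Con replicates 2 and 3 summed as 1 sample. The counts do not separate the deleted exons, so they do not check the labels, and every direction below rests on the labels. Of 8358 genes tested, 3310 were higher and 3544 lower in KO (2488 and 4476 with library size only, which moved the median gene by -0.36). Con replicates 2 and 3 differed from each other far less (chi-square per degree of freedom 1.68) than other pairs of a group (17.7 to 23.7). Myeloid and progenitor genes were counted in both groups, among them Ptprc, Itgam, Kit, Flt3, Mpo, Hoxa9 and Myb, while Cd34 and Meis1 were not analysed here.

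The CXC ligand genes split in direction. Cxcl1, Cxcl3, Cxcl10 and Cxcl16 fell and Cxcl9 and Cxcl14 rose in the libraries labelled KO, and in none of the 6 genes did the values of the groups overlap. All 6 passed the filter on low counts and an adjusted p of 0.05 in edgeR, where 82% of all tested genes passed, 42.4% as lower and 39.6% as higher. Groups did not overlap in 84.5% of tested genes, with KO lower in 44% and higher in 40.5%. A count of 6 of 6 is therefore near what the whole table shows, and the sizes and directions of the changes carry the description. The median log2 fold change of the 6 was -3.76, against -0.06 over all genes tested. The 6 were chosen with earlier results of these data known, so this contrast is not a test of CXC ligands as a group. Added up, the 6 genes stood at 1314 to 1389 CPM per Con library and at 66.5 to 85.8 CPM per KO library. All 9 CXC ligand genes in the table, Cxcl2 among them, stood at 2002 to 2104 CPM per Con library and 535 to 699 CPM per KO library. In such bulk samples, fewer cells of a type and less RNA per cell cannot be told apart.

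**Figure D2:**
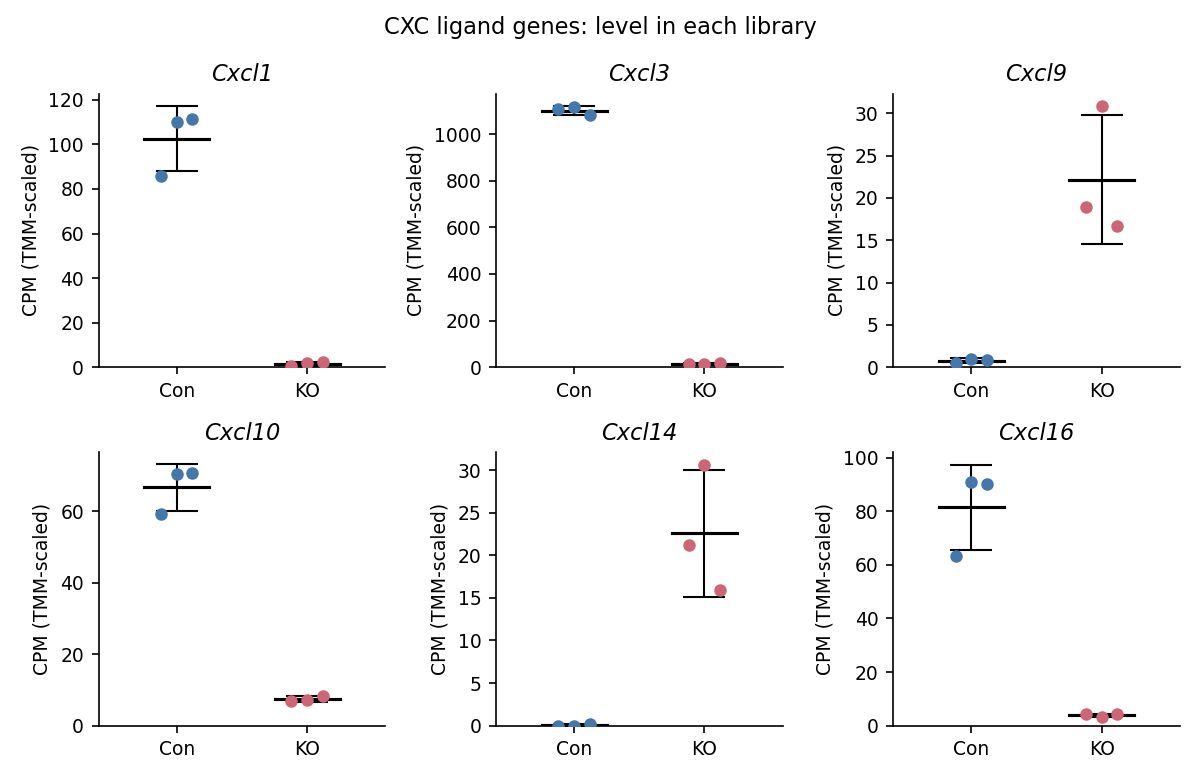
Level of each of the 6 CXC ligand genes in every library, in TMM-scaled CPM on linear axes that start at 0. Points are libraries, the long bar is the mean of 3 and the whiskers are ± 1 SD. Cxcl1, Cxcl3, Cxcl10 and Cxcl16 are high in all 3 Con libraries, and Cxcl9 and Cxcl14 in all 3 KO libraries.

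Cxcl3, a ligand of the neutrophil receptor Cxcr2, was the most abundant of the 6 in Con, with 1106, 1116 and 1081 CPM in Con replicates 1, 2 and 3 and 15.2, 12.1 and 18.8 CPM in KO replicates 1, 2 and 3. The Con values lay within a coefficient of variation of 1.61%, and each KO value was far below them. The log2 fold change was -6.17 (SE 0.15, edgeR adjusted p = 3.83e-09), the 98th lowest of 8358. Cxcl1, known in mice as KC and also a Cxcr2 ligand, stood at 85.8, 110 and 112 CPM in Con and at 0.701, 1.73 and 2.44 CPM in KO. The KO values rest on 6, 14 and 19 counts, and their coefficient of variation of 54.0% was the widest of the 6 genes in that group. Its log2 fold change was -5.99 (SE 0.25, edgeR adjusted p = 5.94e-08), the 108th lowest. The ratio of Cxcl1 to Cxcl3 counts within a library did not separate the groups. On the log2 scale it was -3.43 ± 0.22 in Con and -3.17 ± 0.76 in KO (SD, n = 3 each, prior count 2), a difference of 0.26 (exact permutation test, two-sided, p = 0.6, adjusted over 15 pairs 0.6). The design cannot give a p below 0.1 in this test.

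The other Cxcr2 ligands in the table behaved unequally. Cxcl2, which lies next to Cxcl1 on the chromosome, stood at 681, 708 and 707 CPM in Con and 464, 500 and 632 CPM in KO. It fell by 0.39 on the log2 scale (SE 0.12, edgeR adjusted p = 0.0105), or by 0.75 with library size only. Cxcl5 fell from 6.88 ± 0.596 to 0.813 ± 0.220 CPM (SD, n = 3 each), and its log2 fold change was -3.05 (SE 0.27, edgeR adjusted p = 4.15e-06). Among the counts of the 9 CXC ligand genes in the table, Cxcl3 made up 52.3% to 55.2% in Con libraries and 2.05% to 2.84% in KO libraries. Cxcl2 made up 33.7% to 34.2% in Con and 84.8% to 90.3% in KO. These shares are of counts and are not corrected for length. The 9 genes took 0.230% to 0.234% of all counts in Con and 0.0469% to 0.0613% in KO. Ppbp, Pf4, Cxcl15, Cxcl11, Cxcl12 and Cxcl17 were not analysed here.

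**Figure D3:**
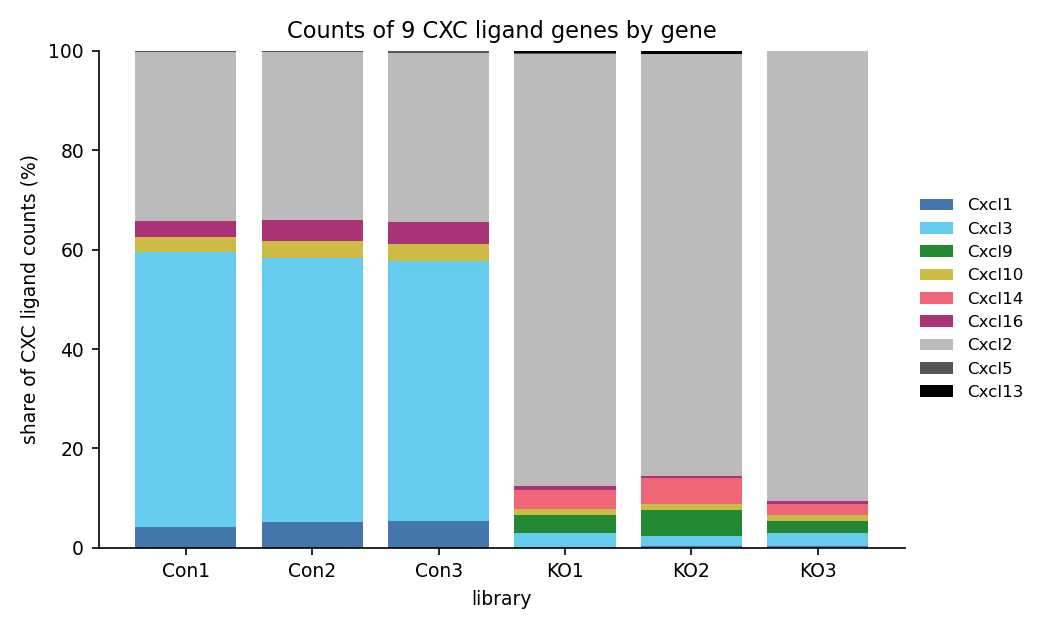
Share of each gene in the counts of 9 CXC ligand genes, in percent, 1 stacked bar per library. Cxcl3 is the largest part of each Con bar (52.3% to 55.2%) and Cxcl2 the largest part of each KO bar (84.8% to 90.3%).

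Cxcl9 and Cxcl10, the interferon-induced ligands of Cxcr3, moved apart. Cxcl10 stood at 59.1, 70.3 and 70.7 CPM in Con and 6.78, 7.28 and 8.23 CPM in KO. The spread was close to 10% of the mean in both groups (9.82% in Con and 9.97% in KO). Its log2 fold change was -3.17 (SE 0.13, edgeR adjusted p = 3.09e-08). Cxcl9 stood at 0.530, 1.02 and 0.799 CPM in Con, from 7, 13 and 10 counts, and at 18.9, 30.8 and 16.7 CPM in KO. It was low in every Con library and highest in KO replicate 2, with a log2 fold change of 4.81 (SE 0.33, edgeR adjusted p = 8.38e-07). The log2 ratio of Cxcl9 to Cxcl10 counts was -6.18 ± 0.27 in Con and 1.499 ± 0.52 in KO (SD, n = 3 each). That difference of 7.68 had an exact permutation p of 0.1, the smallest the test allows (adjusted over 15 pairs 0.107). Cxcl9 was higher and Cxcl10 lower in every KO library, so this p was fixed by their directions and adds nothing to them. The same smallest p was found for 14 of the 15 pairs of members, all except Cxcl1 and Cxcl3. For each pair of a member that rose and a member that fell, it was likewise fixed in advance. Art3, between Cxcl9 and Cxcl10 on the chromosome, had too few counts to be tested, with a level in Con of 0.102 ± 0.115 CPM and in KO of 0.652 ± 0.306 CPM (SD, n = 3 each). The outer neighbours Sdad1, beside Cxcl9, and Nup54, beside Cxcl10, were at -0.60 (SE 0.09, edgeR adjusted p = 0.000223) and -0.22 (SE 0.09, adjusted p = 0.0422). These 3 genes were chosen for their position.

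Cxcl14 was close to absent in Con, with 0, 0 and 2 counts in the 3 libraries, and stood at 21.1, 30.6 and 15.95 CPM in KO. Over the groups, 553 counts in KO against 2 in Con gave a 435-fold higher level in KO (exact 95% interval 120 to 3600, counting error only). The fitted log2 fold change was 8.46 (SE 0.54, edgeR adjusted p = 6.41e-07), the 38th highest of 8358. It was 10.84 (adjusted p = 1.18e-05) without Con replicate 3, the only Con library with a count. As for Cxcl9, the highest value was in KO replicate 2 and the lowest in KO replicate 3, and the log2 ratio of Cxcl9 to Cxcl14 counts in KO was -0.03 ± 0.12 (SD, n = 3). Cxcl13, the follicular ligand of Cxcr5, was also not counted in Con. It had 25, 27 and 2 counts in KO and did not pass the filter, and its level over the group was at least 28.3-fold higher in KO, against a floor of 3 counts over the Con group.

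Cxcl16, the transmembrane ligand of Cxcr6, stood at 63.2, 91.1 and 90.3 CPM in Con and 4.21, 3.33 and 4.37 CPM in KO. Con replicate 1 was the lowest of its group, as it was for Cxcl1 and Cxcl10. The log2 fold change was -4.36 (SE 0.20, edgeR adjusted p = 5.94e-08). Its deposited counts are not whole in 4 of the 6 libraries, while those of the other 5 genes are whole in all. In those 4 libraries the fractions of Cxcl16 and of its chromosomal neighbour Zmynd15 add up to a whole number, for example 834.26 and 107.74 to 942 in Con replicate 1. The counting thus shared reads between the genes. Their sum was 942, 1308 and 1289 counts in Con and 38, 34 and 37 in KO, and Cxcl16 held 87.6% to 88.6% of it in Con and 78.8% to 94.7% in KO. Zmynd15 as listed had a log2 fold change of -4.44 (SE 0.38, edgeR adjusted p = 3.27e-06). How far each gene alone changed is uncertain, and both lay on the same side.

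Per kilobase of the longest protein-coding transcript (GENCODE M21), the order in Con was Cxcl3 (1084 ± 17.5 CPM per kb), Cxcl1 (108 ± 15.2), Cxcl10 (49.3 ± 4.84), Cxcl16 (30.2 ± 5.88), Cxcl9 (0.271 ± 0.0851) and Cxcl14, which had counts in 1 library only (SD, n = 3 each). No neighbours in that order overlapped. In KO the order was Cxcl3 (15.1 ± 3.30), Cxcl14 (12.3 ± 4.06), Cxcl9 (7.67 ± 2.63), Cxcl10 (5.49 ± 0.548), Cxcl1 (1.70 ± 0.919) and Cxcl16 (1.47 ± 0.208). There the values of Cxcl3 and Cxcl14, of Cxcl14 and Cxcl9, of Cxcl9 and Cxcl10, and of Cxcl1 and Cxcl16 overlapped, and only Cxcl10 and Cxcl1 were apart. The levels of the 6 genes thus spanned a narrower range in KO than in Con.

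The transcripts differ in AU-rich pentamers (ATTTA) of the 3' untranslated region, which decay factors such as tristetraprolin bind. Cxcl1 has 7 in 592 bases, or 11.8 per kb, a density reached by 0.408% of 8569 deposited genes with at least 100 such bases. Cxcl3 has 5 in 645 bases (7.75 per kb, reached by 1.59%). Cxcl2 has 11 in 1494 bases (7.36 per kb, reached by 2.01%), a density near that of Cxcl3. Cxcl10 has 3 in 996 bases, Cxcl9 has 3 in 2452 and Cxcl16 has 2 in 1421, while Cxcl14 has 0 in 1149. The median gene has 1.34 per kb. These are features of the reference annotation, and the 3' ends used in these samples were not measured.

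Receptors of the CXC ligands were mostly higher in the libraries labelled KO. Of 6 tested, 5 rose and 1 fell (median log2 fold change 2.83), where 82% of all tested genes passed and 39.6% rose. Cxcr2, the neutrophil receptor of Cxcl1 and Cxcl3, stood at 43.9, 34.5 and 35.9 CPM in Con and 763, 599 and 641 CPM in KO. It thus rose (4.13, SE 0.14, edgeR adjusted p = 1.21e-08) in the libraries in which Cxcl1 and Cxcl3 fell. Its close copy Cxcr1 rose from 0.595 ± 0.321 to 5.82 ± 4.08 CPM (SD, n = 3 each), by 3.27 on the log2 scale or 2.51 without KO replicate 1. Reads may be split between these copies. Cxcr3, the receptor of Cxcl9 and Cxcl10, rose from 0.359 ± 0.282 to 5.27 ± 1.04 CPM (3.81, SE 0.42, edgeR adjusted p = 1.83e-05, and 4.65 without Con replicate 1). Cxcr4, which retains hematopoietic cells in the marrow, rose by 2.23 (SE 0.11). Ackr1, a decoy receptor of red cells and venules that binds chemokines without signalling, rose by 2.39 (SE 0.22). Cxcr5 was at 17.0, 7.23 and 7.44 CPM in Con, highest in replicate 1, and at 2.80, 2.96 and 3.99 CPM in KO (-1.71, SE 0.38). Cxcr6, the receptor of Cxcl16, and Ackr3 were not analysed here.

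**Figure D4:**
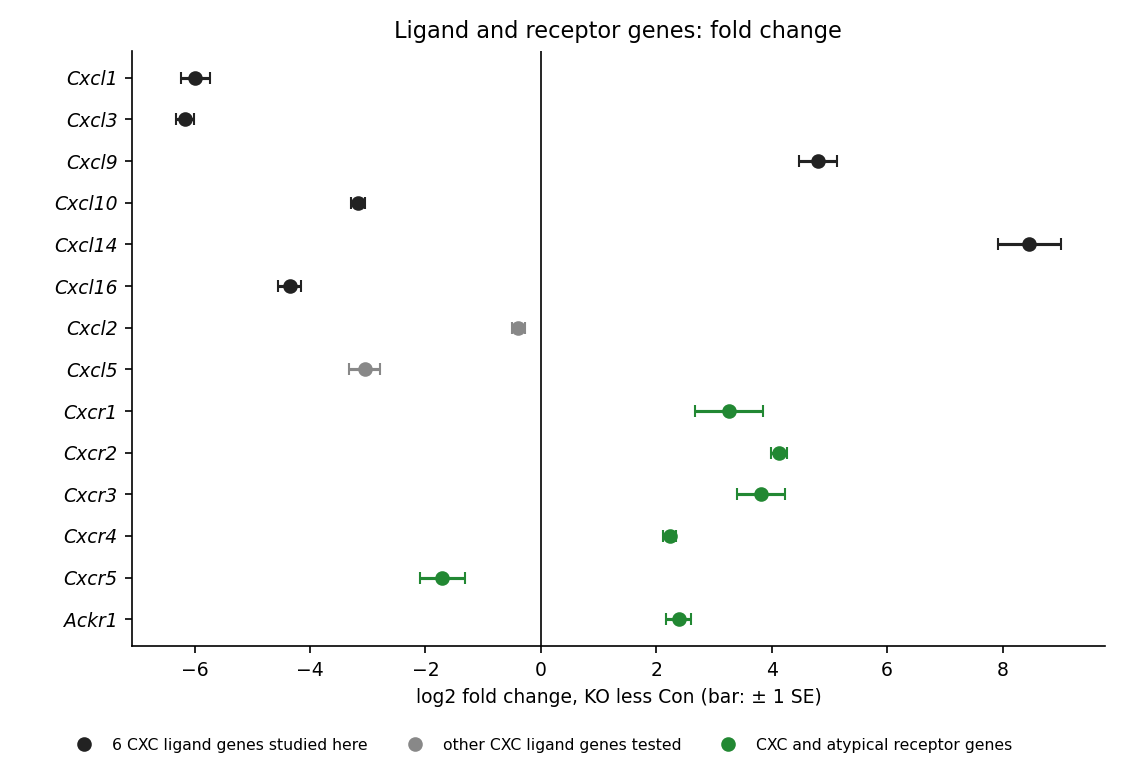
Log2 fold change, KO less Con, of CXC ligand and receptor genes from the edgeR fit over all genes. Points are estimates and bars are ± 1 SE, and colours separate the 6 ligands described here, 2 other ligands and 6 receptors. Cxcl1 and Cxcl3 lie near -6, Cxcl2 near 0, Cxcl9 at 4.81 and Cxcl14 at 8.46, and 5 of the 6 receptors lie above 0.

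Marker genes of several cell types also differed between the groups, in both directions. The counts of each list stand beside 82% of all tested genes that passed, 39.6% as higher and 42.4% as lower. Late neutrophil markers, a list that includes Cxcr2, rose in 12 of 12 genes. Their summed level was 2377 to 2555 CPM in Con libraries and 165147 to 190169 CPM in KO libraries. Monocyte markers rose in 5 of 5 (185 to 227 CPM, then 2726 to 3728), erythroid markers in 8 of 8 (33.8 to 61.4, then 14286 to 20437) and dendritic cell markers in 3 of 4, Flt3, Clec9a and Siglech (13.8 to 19.5, then 193 to 329). Of 10 macrophage markers 6 fell and 4 rose, with a sum of 12660 to 19647 CPM in Con and 979 to 1744 CPM in KO. Most of the Con sum was Gpnmb, with a mean of 14054 of 17121 CPM in Con and 8.26 of 1469 CPM in KO. The markers that fell include Gpnmb, Cd68, Msr1 and Adgre1. Those that rose are the complement genes C1qa, C1qb and C1qc and the receptor kinase gene Mertk. Of 12 T and NK cell markers 10 rose and 2, Cd28 and Gzmb, fell, and Ncr1 was at 0 in all Con libraries. Their sum (417 to 596 CPM in Con, 219 to 232 in KO) went against most of the list. In Con, Gzmb had a mean of 303 and Cd28 of 113 of the 482 CPM of the mean sum. Of 6 B cell markers 4, the precursor genes Dntt, Rag1, Vpreb1 and Igll1, rose (44.4 to 76.3 CPM, then 94.9 to 277). Among 8 endothelial and stromal markers 7 rose and 1, Pecam1, fell (383 to 388 CPM in Con, 346 to 539 in KO), and Sele was at 0 in all Con libraries. Pecam1 held a mean of 371 of 386 CPM of this sum in Con and 79.3 of 417 CPM in KO. Of 7 leukemic and progenitor markers 4 rose and 2, Kit and Hoxa9, fell (1768 to 1975 CPM, then 5016 to 5547). The part of these cell types in the ligand and receptor values was not tested.

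Of 8 proteases known to cut CXC ligands, 5 rose and 3 fell (median log2 fold change 1.14), where 39.6% of all tested genes rose and 42.4% fell. Adam10, the sheddase of Cxcl16, fell from 292 ± 4.85 to 199 ± 10.2 CPM (-0.55, SE 0.08), and the related Adam17 from 270 ± 11.5 to 79.5 ± 0.957 CPM (-1.77, SE 0.08; SD, n = 3 each). Mmp9, a neutrophil gelatinase, rose from 19.99 ± 4.25 to 3043 ± 323 CPM (7.25, SE 0.19), and the neutrophil collagenase gene Mmp8 by 1.78. Mmp12, the macrophage elastase, fell by 12.41 on the log2 scale. Elane, neutrophil elastase, rose by 3.57 and Dpp4, which trims the amino terminus of Cxcl9 and Cxcl10, by 1.67 (SE 0.31). Ctsg, cathepsin G, was at 0.60 (edgeR adjusted p = 0.0188), with overlapping groups. Its call was lost with library size only (edgeR adjusted p = 0.304) and with Con replicates 2 and 3 summed as 1 sample (0.063). It was also lost without Con replicate 2 (0.0593), Con replicate 3 (0.0573), KO replicate 1 (0.0665) or KO replicate 2 (0.0652).

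Genes that carry signals from chemokine receptors were mostly higher, with 11 of 16 up and 3 down (median 1.45). Over all genes tested 39.6% were higher and 42.4% lower, so the 14 of 16 that passed are near the 82% of the whole table. Those lower were Gnb1, Plcb3 and Rgs1, named after their values were seen. Of 21 genes in this list, 16 were tested and the rest were not analysed here. Rgs2 and Rgs14, which shorten G protein signals, rose by 4.34 (SE 0.16) and 2.86 (SE 0.09). Arrb2, the arrestin that takes receptors off the surface, rose from 204 ± 4.55 to 983 ± 108 CPM (2.27, SE 0.10), and the G protein subunit gene Gnb2 from 302 ± 9.88 to 908 ± 6.59 CPM (1.59, SE 0.08; SD, n = 3 each).

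In the interferon-gamma pathway, which induces Cxcl9 and Cxcl10, 8 of 12 tested genes fell and 3, Ifng, Ifngr1 and Irf8, rose (median -1.15), where 42.4% of all tested genes fell and 39.6% rose. Of 20 genes listed for this pathway, 12 were tested and the rest were not analysed here. Irf8, a transcription factor of the monocyte lineage, rose by 2.47 (SE 0.12). Nlrc5, the regulator of class I genes, fell (-1.53, SE 0.09), as did the kinase gene Jak2 (-1.23, SE 0.08) and the GTPase gene Irgm1 (-1.16, SE 0.09). These 3 lay on the side of Cxcl10 and opposite to Cxcl9. Ifng itself, named after its values were seen, had 4, 3 and 2 counts in Con and 20, 20 and 27 in KO (3.49, SE 0.38, edgeR adjusted p = 1.99e-05).

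NF-kB pathway genes, which include inducers of Cxcl1 and Cxcl3, fell in 15 of 23 tested and rose in 6 (median -0.61), against 42.4% and 39.6% of all genes tested. Il1a, interleukin-1 alpha, stood at 910, 1080 and 1045 CPM in Con and 12.4, 12.8 and 9.26 CPM in KO (-6.46, SE 0.15, edgeR adjusted p = 2.39e-09), a change close in size to that of Cxcl3. Tnip3, an inhibitor of NF-kB signalling, fell by 7.44 (SE 0.16). The receptor genes Tnfrsf1b and Il1r1 fell, with log2 fold changes of -3.12 (SE 0.11) and -2.46 (SE 0.10). Other receptor genes of the list rose, Il17ra by 2.58 (SE 0.16) and Tnfrsf1a by 1.36 (SE 0.12). The rest of the 6 that rose were Myd88, Irak4, Ikbkb and Rela. These 6 are named after their values were seen. Of 33 NF-kB pathway genes listed, 23 were tested and the rest were not analysed here.

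Among 8 factors that set the stability of chemokine messenger RNA, 6 rose and 2 fell (median 0.48), beside 39.6% and 42.4% of all genes tested. Zfp36, which encodes tristetraprolin, a protein that binds AU-rich elements and hastens decay, rose from 122 ± 7.01 to 2889 ± 554 CPM (SD, n = 3 each; 4.57, SE 0.16, edgeR adjusted p = 1.62e-08). Its relative Zfp36l2 rose by 1.56 (SE 0.15) and Hnrnpd, another AU-rich element binding protein, by 0.61 (SE 0.08). Zc3h12c, of the regnase family of RNases, fell by 3.44 (SE 0.20), and the other that fell was Zc3h12a of the same family (-1.84, SE 0.27), named after its values were seen. With library size only, 3 of the 8 rose, which were Zfp36, Zfp36l2 and Hnrnpd. Of 13 factors listed, 8 were tested and the rest were not analysed here.

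**Figure D5:**
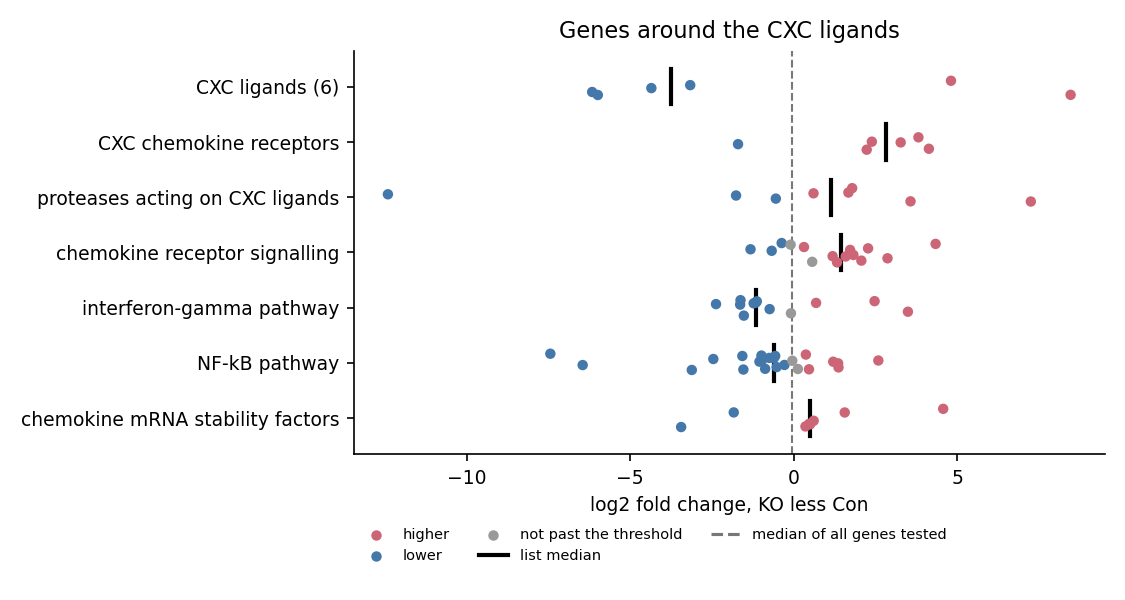
Log2 fold change, KO less Con, of every tested gene in the 6 CXC ligands and in 6 lists around them. Points are genes, coloured by whether they passed an adjusted p of 0.05, black bars are list medians and the dashed line is the median of all genes tested (-0.06). Receptor genes lie mostly to the right (median 2.83), and interferon-gamma and NF-kB pathway genes mostly to the left (medians -1.15 and -0.61).

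The genes most like each ligand were found by the Euclidean distance between log2 CPM values, centred on the mean of each gene, over the 6 libraries, among 7121 genes that average at least 2 on the log2 CPM scale. Nearest to Cxcl1 were Creb5 (distance 0.206), a transcription factor gene, and Flrt2 (0.319), and nearest to Cxcl3 were Acod1 (0.464), which encodes the enzyme that makes itaconate in activated macrophages, and P4ha2 (0.735), a collagen prolyl hydroxylase. Acod1 went from 2121 ± 353 CPM in Con to 31.0 ± 8.25 CPM in KO (SD, n = 3 each). Cxcl10 lay nearest to Tnfrsf1b (0.141), a receptor for tumor necrosis factor, and Tnfrsf22 (0.171), and Cxcl16 to Myof (0.151), myoferlin, and Flrt3 (0.322). Cxcl9 lay nearest to Gas6 (0.546), a ligand of TAM receptor kinases, and to Slc40a1 (0.628), which encodes the iron exporter ferroportin. Gas6 went from 4.15 ± 0.747 to 110 ± 37.7 CPM and Slc40a1 from 17.9 ± 2.37 to 407 ± 19.4 CPM (SD, n = 3 each). For Cxcl14 the nearest were the neutrophil genes Fcnb (0.813), ficolin B, and S100a8 (0.871), a calprotectin subunit, at larger distances. Cxcl14 itself averages below the floor of 2, so genes as low as it is could not be picked. With 2 groups this far apart, the distance reflects mainly the size of the group difference.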

How the data were processed

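The authors deposited 1 table of unscaled expected counts, that is estimated reads for each gene, with a column for each library, per the file headers. Libraries were made from TRIzol RNA with a BGI mRNA kit, per the labels' protocols. The tools for alignment and counting were not given in the sources used here. As build, the submitters' processing notes name GRCh38, a human build, although the genes are mouse genes. Coordinates are given for RefSeq promoter sequences only. Counts were rounded (1449 of 9295 genes had a value that was not whole). KO was compared with Con in edgeR 4.0.16 (R 4.3.3): TMM factors 0.876 to 1.17, filterByExpr, robust quasi-likelihood test, two-sided, Benjamini-Hochberg adjustment over 8358 genes, threshold 0.05. Adjusted p-values for single genes are from this test. It was tried on simulated counts of 9295 genes, in which 50 genes each changed by folds of 2, 4, 0.5 and 0.25. Far more genes differed in these data (82% of those tested), so that trial does not cover the scaling used here. Ratios between members used exact permutation tests. DESeq2 1.42.0, limma-voom (limma 3.58.1), other scalings and filters, a replicate block and left-out libraries were alternatives. Intervals and floors cover counting error only, because PCR reads that carry no molecular identifier are not separate molecules. At these depths a gene at 1 CPM rests on about 10 counts.

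Members and lists were chosen with earlier results of these data known. The counts of pathway and marker lists cover only the genes of each list that were tested. Named genes are the members, Papola, all ligands, receptors and proteases listed, the 4 genes of smallest adjusted p in each other list, and the 2 genes nearest to each member. Others named were chosen for position or after their values were seen.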

Additional observations from a re-analysis of the deposited data

How the results depend on the processing

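Each of the 6 CXC ligand genes kept its direction and its call under every alternative in which it was tested (17 for Cxcl3, Cxcl10 and Cxcl16, and 16 for Cxcl1, Cxcl9 and Cxcl14, which the stricter filter of 1 CPM in all libraries removed). Their log2 fold changes ranged from -6.40 to -5.62 for Cxcl1, -6.52 to -6.02 for Cxcl3, -3.52 to -3.11 for Cxcl10, -4.71 to -4.25 for Cxcl16, 4.46 to 5.06 for Cxcl9 and 7.96 to 10.84 for Cxcl14. Through its own construction the stricter filter left 0 of the 6 higher, 1 other CXC ligand lower and 3 receptors higher. Of the other CXC ligands 1 was higher with no filter and with Con replicates 2 and 3 summed as 1 sample, and 0 to 1 when 1 library was left out, since Cxcl13 then passed the filter. Scaling by library size only moved the median gene by -0.36. In that setting 3 of the factors of messenger RNA stability were higher and Papola was at -0.13. Why the scalings differ was not tested. With the replicate number as a block, 3270 genes were higher and 3496 lower, and no call of a ligand changed. Deviations of same-numbered Con and KO libraries correlated at -0.004 to 0.028, so the numbers were not taken to pair samples. Depth limits genes with fewer than 30 counts in every library of a group, which among the ligands and receptors were Cxcl1 and Cxcl5 in KO, Cxcl9, Cxcl14, Cxcr1 and Cxcr3 in Con, and Cxcl13 in both.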
